A study of Homo sapiens with 12 samples.

Results

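Interferon-stimulated genes are the genes that a cell switches on when an interferon binds its receptor. Here 51 of them, chosen by name from general knowledge, are described across 12 arrays of MDA231. Earlier results of these data were known when they were chosen. Of these 51 genes, 50 had a probe set annotated with 1 gene symbol, and 47 were bright enough to be tested among 12887 genes in all. STAT2 was not analysed here. The probe sets of RSAD2, CMPK2 and IFI27 never exceeded the array median on 3 arrays, and their log2 intensities stayed between 3.88 and 5.61 for RSAD2, 3.17 and 3.47 for CMPK2, and 5.55 and 5.99 for IFI27. MDA231 (MDA-MB-231) is an established human line of triple-negative breast cancer. There were 4 groups of 3 arrays, and the cells of every group carried a short hairpin RNA, pGIPZ lentiviral for those against CPT1 and CPT2. The ETX group carried the scramble hairpin and received ETX, an abbreviation that the labels leave unexplained and that is taken to mean etomoxir, which inhibits carnitine palmitoyltransferase 1. The shCPT-1 group carried a hairpin against CPT1 with no isoform given, the shCPT-2 group a hairpin against CPT2, and the scramble group the control hairpin without the compound. The sources used here give no dose or time of ETX for these arrays, no number of hairpins per gene and no number of clones. Separate cultures for the 3 arrays of a group are not mentioned in the labels, so a p-value here reflects array-to-array spread alone and that spread may be technical.

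Type I interferons signal through the receptor chains IFNAR1 and IFNAR2 and the kinases JAK1 and TYK2. These kinases act on STAT proteins, which join IRF9 and bind the interferon-stimulated response element (ISRE) in promoters. Interferon gamma acts through another receptor and another promoter element, the gamma-activated site (GAS), and it raises the transcription factor IRF1. Many target genes block steps of viral replication, others process antigens, and several dampen the response itself. Breast cancer cells can carry part of this programme without added interferon. CPT1 and CPT2 move long-chain fatty acids across the mitochondrial membranes, so that they can be burned by beta-oxidation.

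The promoters of 8 of these genes are shown because the arrays separated genes that share the ISRE core: IFIT1, ISG15 and IFI6 were higher in shCPT-1 than in scramble, BST2, GBP1, IFI44L and IFITM1 were lower in both knockdowns, and the tested probe set of IFIT3 was called in none of the 6 comparisons, although its second was lower in shCPT-2. Each stretch has 70 bases upstream of the RefSeq transcription start on GRCh38.p14, printed 5′ to 3′ along the gene. Capitals mark matches to the ISRE core, searched as GAAA, any 2 bases and GAAA again on both strands, so that a match on the other strand reads TTTC, any 2 bases and TTTC, and overlapping matches run together. IFIT3 has several annotated starts, and 1 of its windows is shown.
IFIT1: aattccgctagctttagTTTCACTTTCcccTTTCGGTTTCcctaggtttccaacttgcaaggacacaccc
ISG15: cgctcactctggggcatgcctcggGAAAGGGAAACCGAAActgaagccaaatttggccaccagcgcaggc
IFI6: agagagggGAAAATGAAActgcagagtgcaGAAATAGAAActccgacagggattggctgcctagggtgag
IFIT3: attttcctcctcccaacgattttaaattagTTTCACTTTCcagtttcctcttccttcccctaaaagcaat
BST2: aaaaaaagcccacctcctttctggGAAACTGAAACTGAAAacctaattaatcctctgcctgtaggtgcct
GBP1: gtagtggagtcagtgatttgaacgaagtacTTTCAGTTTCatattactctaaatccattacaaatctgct
IFI44L: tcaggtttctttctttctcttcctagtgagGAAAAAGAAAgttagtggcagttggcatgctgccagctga
IFITM1: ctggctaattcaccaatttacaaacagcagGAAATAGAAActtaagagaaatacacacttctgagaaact
The stretches lie at chr10:89392490-89392559 (plus strand) for IFIT1, chr1:1013360-1013429 (plus strand) for ISG15, chr1:27672246-27672315 (minus strand) for IFI6 and chr10:89327845-89327914 (plus strand) for IFIT3. Those of the genes lower in both knockdowns lie at chr19:17405715-17405784 (minus strand) for BST2, chr1:89065296-89065365 (minus strand) for GBP1, chr1:78620345-78620414 (plus strand) for IFI44L and chr11:313970-314039 (plus strand) for IFITM1. Windows of 300 bases, from 250 upstream to 50 downstream of the start, were searched for 42 of the 51 genes. The ISRE core was present in 29 of these 42 genes (69%) and in 4.38% of 27305 genes. A gene was counted if any of its windows held a match. The GAS core, TTCNNNGAA, was present in 14 of the 42 (33.3%) and in 9.38% of the 27305. A match describes letters and is no evidence that a factor binds there.

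Array medians lay between 74.9 and 77.2 on the linear intensity scale, and arrays of a group correlated at 0.9945 to 0.9989, against at most 0.9913 between groups. The hairpin targets moved with the labels. CPT1A, 1 of the CPT1 genes, was -1.59 ± 0.08 in shCPT-1 against scramble on the log2 scale (± standard error, n = 3 each), or 3.02-fold lower, and CPT2 was -1.001 ± 0.099 in shCPT-2, or 2-fold lower. With ETX, CPT1A was 1.11 ± 0.08 and CPT2 was 0.27 ± 0.10 (limma adjusted p = 0.043 for CPT2). CPT1A was also lower in shCPT-2, at -0.23 ± 0.08 (limma adjusted p = 0.0318). The MDA-MB-231 markers exceeded the array median on all arrays for 5 of 5 genes. Of 8 luminal epithelial markers, ESR1, ERBB2, EPCAM, GATA3 and KRT19 did so on all 12 arrays, FOXA1 on 5, and CDH1 and PGR on 0. Of 10 interferon genes, 9 had a probe set and 0 of these exceeded the array median on any array. The signal difference between 3′ and 5′ probes of the actin control, a sign of RNA quality, was 1.75 ± 0.06 with ETX, 1.73 ± 0.23 in shCPT-1 and 1.68 ± 0.23 in shCPT-2, against 2.07 ± 0.27 in scramble (log2, SD, n = 3).

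The interferon-stimulated genes did not move as a block: with ETX and in shCPT-1 genes rose and fell side by side, while in shCPT-2 most of the called genes fell. With ETX, 14 of the 47 tested genes rose and 8 fell at a limma adjusted p under 0.05 (29.8% and 17%), beside 21.9% higher and 19.4% lower among all genes. In shCPT-1, 17 rose and 14 fell (36.2% and 29.8%), beside 23.1% higher and 18.0% lower among all genes. In shCPT-2, 6 rose and 24 fell (12.8% and 51.1%), beside 25.6% higher and 20.5% lower among all genes. The share of lower genes in shCPT-2 was thus above the background, and the shares with ETX lay nearer to it. The median log2 change over the 47 genes was 0.10 with ETX, 0.05 in shCPT-1 and -0.17 in shCPT-2, against -0.01, 0.01 and 0.005 over all genes. These counts leave out the genes that were too dim. OAS1 passed the filter on low values only through its 3 shCPT-1 arrays and EPSTI1 only through its 3 ETX arrays, so these calls follow from the filter in part. Without both genes, 45 remain, of which 13 were higher and 8 lower with ETX, 15 and 14 in shCPT-1, and 5 and 24 in shCPT-2. The 3 comparisons share the scramble arrays, so their values are given side by side.

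Larger changes, called and of at least 0.5 on the log2 scale, were few with ETX and many in shCPT-2. With ETX, 2 genes rose and 1 fell by this much (4.07% and 1.11% of all genes). In shCPT-1, 7 rose and 6 fell (4.55% and 3.39% of all genes). In shCPT-2, 2 rose and 13 fell (5.14% and 5.21% of all genes). Without OAS1 and EPSTI1, 1 gene with ETX and 6 in shCPT-1 rose by this much. Across the 4 groups the moderated F test called 41 of the 47 genes, beside 69.8% of all genes, and the 6 not called by their tested probe sets were IFIT3, IFITM2, IFITM3, HERC6, IRF9 and SP110. It called 39 of the 45 genes left without OAS1 and EPSTI1. The shCPT-2 group had the lowest mean for 22 of the 47 genes (46.8%, against 23.5% of all genes), and shCPT-1 had the highest mean for 19 (40.4%, against 23.8%). These 19 include OAS1, whose place there follows from the filter in part. In a bulk sample, fewer cells of a type and less RNA per cell cannot be told apart.

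**Figure D1:**
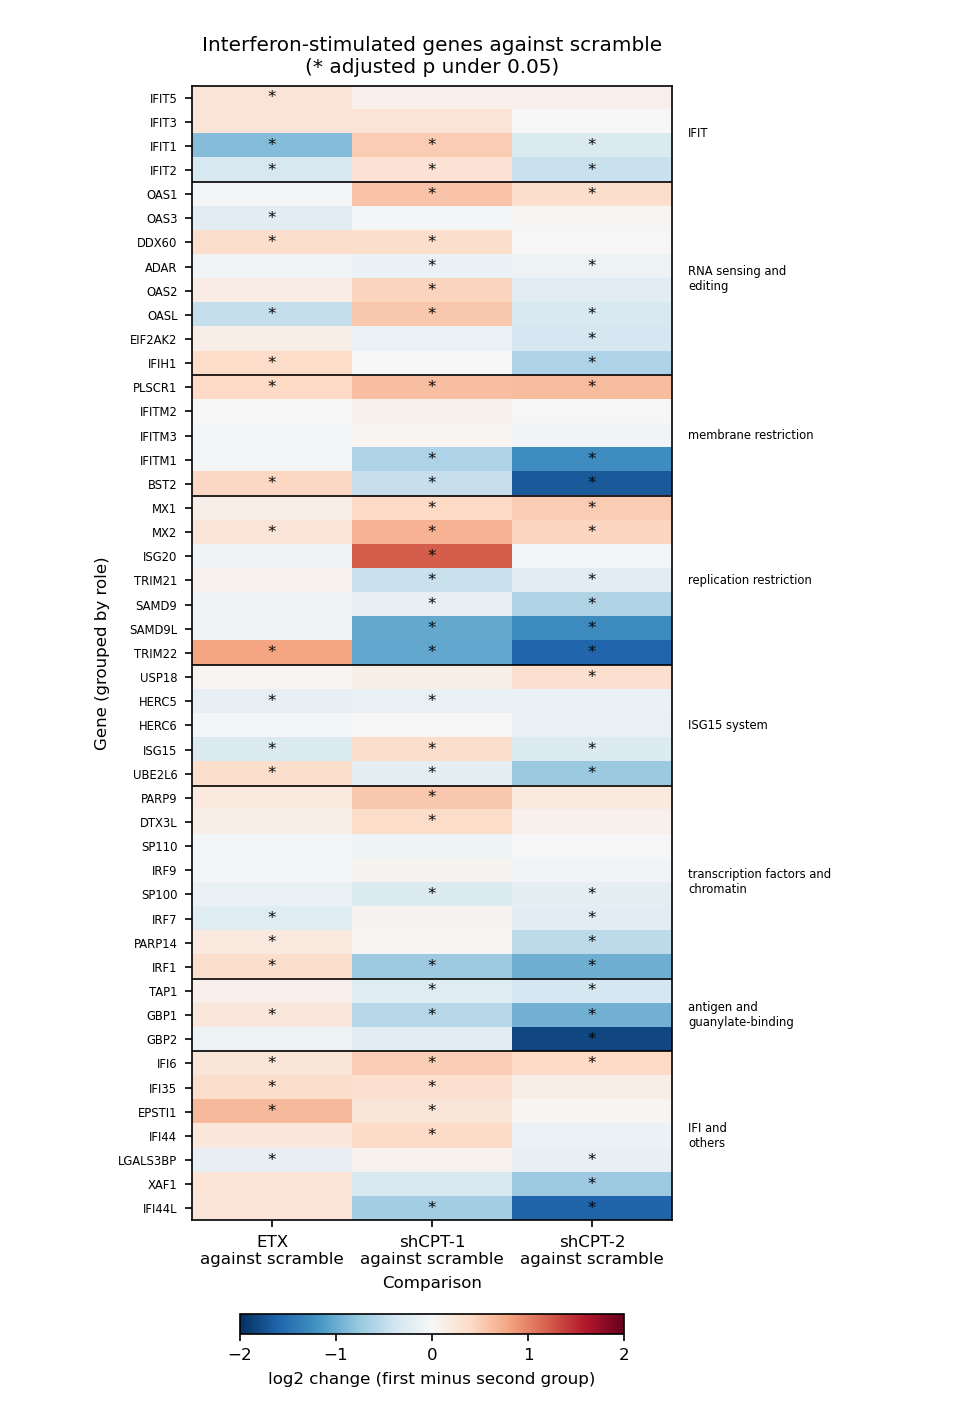
Log2 change of the 47 tested genes (rows, grouped by role) in ETX, shCPT-1 and shCPT-2 against scramble (columns), with red for higher and blue for lower and an asterisk at an adjusted p under 0.05. GBP2, BST2, IFI44L and TRIM22 are the darkest blue in shCPT-2, ISG20 is the darkest red in shCPT-1, and IFIT1 and TRIM22 stand out in opposite directions with ETX.

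Among transcription factors and chromatin proteins, the clearest change was in IRF1, the factor that drives antigen presentation genes downstream of interferon gamma. IRF1 read 9.54, 9.62 and 9.61 with ETX, 8.48, 8.59 and 8.50 in shCPT-1, 8.31, 8.22 and 8.31 in shCPT-2, and 9.21, 9.29 and 9.25 in scramble (log2 intensity). The ETX arrays lay above scramble and both knockdowns lay below it, with no overlap between any of the groups. The changes were 0.34 ± 0.05 with ETX, -0.72 ± 0.05 in shCPT-1 and -0.97 ± 0.05 in shCPT-2, with limma adjusted p of 0.000214, 2.89e-07 and 1.49e-08. A second IRF1 probe set gave 0.49, -0.99 and -1.30 in the same order. IRF7, which amplifies transcription of type I interferon genes, fell by 0.25 with ETX and by 0.23 in shCPT-2, and its change in shCPT-1 was 0.05 ± 0.05 and was not called. IRF9, the DNA-binding partner of the STAT proteins, stayed between -0.06 and 0.06 against scramble and was not called in any of these comparisons.

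PARP9 and DTX3L, partners in 1 complex that modifies histones and host proteins, rose in shCPT-1, and PARP14, a related ADP-ribosyltransferase, fell in shCPT-2. PARP9 read 7.40, 7.44 and 7.47 with ETX, 7.76, 7.76 and 7.85 in shCPT-1, 7.61, 7.23 and 7.46 in shCPT-2, and 7.30, 7.24 and 7.19 in scramble. Its shCPT-1 arrays lay above all scramble arrays (0.54 ± 0.08), whereas the other changes against scramble, 0.20 with ETX and 0.19 in shCPT-2, were not called. PARP14 read 8.25, 8.22 and 8.30 with ETX, 8.02, 8.12 and 8.12 in shCPT-1, 7.63, 7.47 and 7.53 in shCPT-2, and 8.06, 8.12 and 8.02 in scramble. Its shCPT-2 arrays lay below those of every other group (-0.52 ± 0.05 against scramble), and with ETX it rose slightly (0.19 ± 0.05). DTX3L was 0.37 ± 0.08 in shCPT-1. The nuclear body protein SP100 fell in shCPT-1 (-0.27) and shCPT-2 (-0.19), the second of which was no longer called without scramble replicate 1 or without shCPT-2 replicate 1 or 3. Of the 6 kept SP100 probe sets, 4 were called in shCPT-1, with changes between -0.39 and 0.11, and 1 in shCPT-2, with changes between -0.19 and 0.23. The tested probe set of its relative SP110 was not called against scramble, but another was called at -0.39 in shCPT-1 and -0.40 in shCPT-2. Of the 8 tested genes of this role, 2 rose and 1 fell with ETX, 2 rose and 2 fell in shCPT-1, and 0 rose and 4 fell in shCPT-2. These are 25% and 12.5% with ETX, 25% and 25% in shCPT-1, and 0% and 50% in shCPT-2. All genes gave 21.9% and 19.4%, 23.1% and 18.0%, and 25.6% and 20.5%. With 8 genes these counts are not read further.

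The guanylate-binding proteins, which are GTPases that attack intracellular pathogens and are strongly induced by interferon gamma, gave the largest fall among the 47 genes in shCPT-2. GBP2 read 8.31, 8.33 and 8.43 with ETX, 8.27, 8.24 and 8.19 in shCPT-1, 6.89, 6.52 and 6.50 in shCPT-2, and 8.58, 8.41 and 8.39 in scramble. The shCPT-2 arrays stood well below the rest, and the change against scramble was -1.82 ± 0.09, or 3.53-fold lower (limma adjusted p = 1.63e-08). A second GBP2 probe set gave -2.14, with shCPT-2 values of 5.04 to 5.13 below the array medians, so that size is less certain. In shCPT-1, the change of GBP2 was -0.23 ± 0.09 and was not called, although the second probe set was called at -0.51.

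GBP1 fell in both knockdowns. It read 10.36, 10.37 and 10.39 with ETX, 9.54, 9.61 and 9.61 in shCPT-1, 9.27, 9.05 and 9.26 in shCPT-2, and 10.07, 10.23 and 10.17 in scramble. The knockdown arrays lay below all scramble arrays, and the shCPT-2 arrays were the lowest, with changes of -0.57 ± 0.06 in shCPT-1 and -0.96 ± 0.06 in shCPT-2. With ETX the change was 0.22 ± 0.06, a call that ended without scramble replicate 1 or with the actin difference as a covariate, and the other 2 GBP1 probe sets gave -0.08 and -0.11 there and were not called. Those probe sets gave -1.26 and -1.27 in shCPT-2. TAP1, which carries peptides to MHC class I molecules, fell by 0.24 in shCPT-1 and by 0.35 in shCPT-2. All 3 tested genes of this role fell in shCPT-2, beside 20.5% of all genes.

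The IFIT proteins, which bind foreign RNA ends and block their translation, separated the groups in a different order. IFIT1 read 7.87, 7.84 and 7.69 with ETX, 9.20, 9.21 and 9.12 in shCPT-1, 8.57, 8.15 and 8.43 in shCPT-2, and 8.58, 8.74 and 8.70 in scramble. The shCPT-1 arrays were the highest, scramble came next, shCPT-2 was lower and ETX was the lowest, and no group overlapped another. Against scramble the changes were -0.87 ± 0.09 with ETX (1.83-fold lower, limma adjusted p = 3.08e-05), 0.50 ± 0.09 in shCPT-1 and -0.29 ± 0.09 in shCPT-2. This last call was lost without scramble replicate 2 or without shCPT-2 replicate 2. IFIT2 followed the same signs, at -0.33 ± 0.06 with ETX, 0.29 ± 0.06 in shCPT-1 and -0.45 ± 0.06 in shCPT-2, and its second probe set was called in shCPT-2 alone, at -0.40. IFIT5 rose with ETX (0.25 ± 0.05) and was not called in either knockdown. IFIT3, at 0.26 ± 0.11, 0.27 ± 0.11 and 0.01 ± 0.11 in the same order of comparisons, was not called by its tested probe set. The second IFIT3 probe set was called in shCPT-2, at -0.28 against scramble, -0.22 against ETX and -0.29 against shCPT-1.

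Among the sensors and editors of RNA, OAS2 and OASL rose in shCPT-1, and the sensor IFIH1 fell in shCPT-2. OASL, an oligoadenylate synthetase-like protein that enhances RIG-I signalling, read 7.18, 7.12 and 7.03 with ETX, 8.07, 8.15 and 8.17 in shCPT-1, 7.27, 7.46 and 7.13 in shCPT-2, and 7.59, 7.66 and 7.53 in scramble. Its shCPT-1 arrays lay above scramble, and its ETX and shCPT-2 arrays lay below it, with changes of -0.48 ± 0.07, 0.54 ± 0.07 and -0.30 ± 0.07 for ETX, shCPT-1 and shCPT-2. The call in shCPT-2 ended with the actin difference as a covariate. OAS1, which makes the 2′-5′ oligoadenylates that activate RNase L, read 5.82, 5.77 and 5.72 with ETX, 6.39, 6.35 and 6.36 in shCPT-1, 6.15, 6.19 and 6.12 in shCPT-2, and 5.82, 5.84 and 5.73 in scramble. The shCPT-1 arrays alone exceeded the array median and let OAS1 into the test, so its differences of 0.57 in shCPT-1 and 0.35 in shCPT-2 against scramble are a description. OAS2 rose in shCPT-1 (0.45 ± 0.12) and OAS3 fell with ETX (-0.23 ± 0.05).

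IFIH1 (MDA5), a sensor of long double-stranded RNA, read 7.11, 7.20 and 7.11 with ETX, 6.77, 6.68 and 6.89 in shCPT-1, 6.31, 6.07 and 6.08 in shCPT-2, and 6.64, 6.85 and 6.80 in scramble. Its ETX arrays were above scramble (0.37 ± 0.08), its shCPT-1 arrays overlapped scramble (0.01, not called) and its shCPT-2 arrays were below (-0.61 ± 0.08). In shCPT-2, 1 of its 3 arrays exceeded the array median. DDX60, a helicase that promotes RNA sensing, rose by 0.35 with ETX and by 0.35 in shCPT-1. EIF2AK2 (PKR), the kinase that stops translation on double-stranded RNA, fell in shCPT-2 (-0.33 ± 0.05), while its second probe set gave -0.10 and was not called. ADAR, the editor of adenosines in double-stranded RNA, fell by 0.13 in shCPT-1 and by 0.11 in shCPT-2. Both ADAR calls ended when each array was centred on its median. They also ended without scramble replicate 1, the shCPT-1 call without shCPT-1 replicate 3, and the shCPT-2 call without any of 7 other arrays, 1 at a time.

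BST2 (tetherin), which holds budding virus particles at the cell surface, was the second largest fall in shCPT-2. It read 8.48, 8.40 and 8.68 with ETX, 7.59, 7.64 and 7.70 in shCPT-1, 6.42, 6.69 and 6.17 in shCPT-2, and 7.77, 8.26 and 8.29 in scramble. The shCPT-2 arrays lay far below the others, the shCPT-1 arrays just below the lowest scramble array, and the ETX arrays above the highest. The changes were 0.41 ± 0.14 with ETX, -0.46 ± 0.14 in shCPT-1 and -1.68 ± 0.14 in shCPT-2, or 3.2-fold lower for this knockdown. Of its shCPT-2 arrays, 2 of 3 exceeded the array median, so the size of that fall is less certain. With ETX the call ended without scramble replicate 1, ETX replicate 1 or ETX replicate 3, and in shCPT-1 without scramble replicate 2 or 3 or shCPT-1 replicate 1 or 2. Both of these calls also ended with the actin difference as a covariate, whereas the fall in shCPT-2 held under all alternatives.

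IFITM1, which blocks entry of viruses at the membrane, fell in both knockdowns. It read 8.52, 8.52 and 8.56 with ETX, 8.04, 7.90 and 7.90 in shCPT-1, 7.31, 7.38 and 7.26 in shCPT-2, and 8.58, 8.61 and 8.48 in scramble. The ETX arrays overlapped scramble (-0.02), the shCPT-1 arrays were lower (-0.61 ± 0.05) and the shCPT-2 arrays were lowest (-1.24 ± 0.05, 2.36-fold lower). IFITM2 and IFITM3 were not called, with changes between -0.06 and 0.09 against scramble. The IFITM genes are closely similar in sequence, and their probe sets are of kinds that can bind several family members, so the division of signal among them is uncertain. PLSCR1, a phospholipid scramblase with antiviral activity, read 10.31, 10.31 and 10.29 with ETX, 10.58, 10.44 and 10.49 in shCPT-1, 10.57, 10.44 and 10.63 in shCPT-2, and 9.75, 9.86 and 10.12 in scramble. It was higher than all scramble arrays in each of the other groups, at 0.39 ± 0.08 with ETX, 0.59 ± 0.08 in shCPT-1 and 0.63 ± 0.08 in shCPT-2. A second probe set gave 0.45, 0.65 and 0.64 in the same order.

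**Figure D2:**
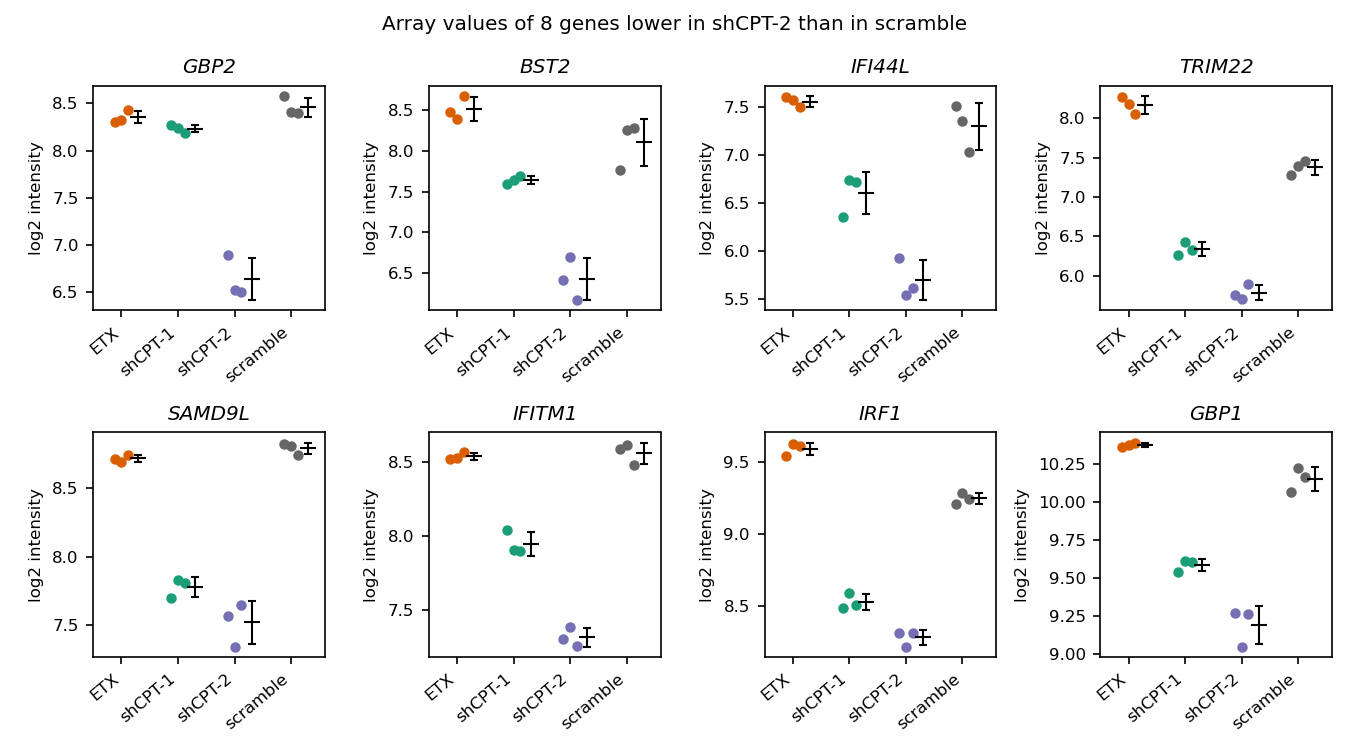
Log2 intensity (vertical axes) of GBP2, BST2, IFI44L, TRIM22, SAMD9L, IFITM1, IRF1 and GBP1 in each array (points) of ETX, shCPT-1, shCPT-2 and scramble, with the mean and SD of 3 arrays beside them. The shCPT-2 points are the lowest in each panel, and the shCPT-1 points lie between shCPT-2 and scramble in all 8 panels.

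The restriction factors that act on viral genomes split in both knockdowns. TRIM22, a ubiquitin ligase that restricts viral transcription, read 8.27, 8.18 and 8.05 with ETX, 6.26, 6.43 and 6.33 in shCPT-1, 5.76, 5.71 and 5.89 in shCPT-2, and 7.28, 7.39 and 7.46 in scramble. It moved in opposite directions, up with ETX (0.79 ± 0.07) and down in the knockdowns, at -1.04 ± 0.07 in shCPT-1 and -1.59 ± 0.07 in shCPT-2, with no overlap between groups. In shCPT-2, 0 of 3 TRIM22 arrays exceeded the array median, so the size of that fall is less certain. SAMD9L, an inhibitor of translation and of growth, read 8.72, 8.69 and 8.75 with ETX, 7.70, 7.83 and 7.81 in shCPT-1, 7.57, 7.34 and 7.65 in shCPT-2, and 8.83, 8.81 and 8.75 in scramble. It fell in shCPT-1 (-1.02 ± 0.07) and in shCPT-2 (-1.28 ± 0.07), and a second probe set gave -0.69 and -0.95. With ETX the tested probe set was not called (-0.07), while the second was called at 0.24.

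SAMD9, its relative with a like role, read 8.87, 8.91 and 8.96 with ETX, 8.86, 8.83 and 8.77 in shCPT-1, 8.45, 8.35 and 8.36 in shCPT-2, and 8.99, 8.92 and 9.02 in scramble. Its shCPT-2 arrays lay clearly below the others (-0.59 ± 0.05). The change in shCPT-1 was small (-0.16 ± 0.05), and its call ended without scramble replicate 1 or 3 or without shCPT-1 replicate 3. A second SAMD9 probe set gave -0.04 there, not called, and -0.46 in shCPT-2. TRIM21, an antibody receptor in the cytosol, fell by 0.45 in shCPT-1 and by 0.22 in shCPT-2, and the second call ended with the actin difference as a covariate.

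MX1, MX2 and ISG20 rose in shCPT-1. MX1, a GTPase that traps viral nucleoproteins, read 7.86, 7.83 and 7.86 with ETX, 8.12, 8.16 and 8.10 in shCPT-1, 8.23, 8.24 and 8.25 in shCPT-2, and 7.63, 7.80 and 7.75 in scramble. Both knockdowns lay above scramble, at 0.40 ± 0.05 in shCPT-1 and 0.51 ± 0.05 in shCPT-2. MX2, its relative that blocks retroviral nuclear entry, read 6.999, 7.19 and 6.80 with ETX, 7.35, 7.56 and 7.39 in shCPT-1, 7.22, 7.23 and 7.09 in shCPT-2, and 6.84, 6.74 and 6.64 in scramble. It rose by 0.69 in shCPT-1 and by 0.43 in shCPT-2. With ETX its arrays overlapped scramble, and the call (0.25 ± 0.09) ended when any of 8 arrays was left out, those being scramble replicates 2 and 3, ETX replicates 1 and 2, shCPT-1 replicate 3 and each shCPT-2 replicate.

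ISG20, an exonuclease of single-stranded RNA, read 6.9998, 6.95 and 6.85 with ETX, 8.31, 8.14 and 8.18 in shCPT-1, 7.12, 6.91 and 6.88 in shCPT-2, and 7.08, 7.05 and 6.86 in scramble. Only the shCPT-1 arrays stood apart, by 1.21 ± 0.08 or 2.32-fold (limma adjusted p = 2.43e-07), which was the largest rise among the 47 genes. A second ISG20 probe set gave 0.86. Of the 7 tested genes of this role, 2 rose and 0 fell with ETX, 3 rose and 4 fell in shCPT-1, and 2 rose and 4 fell in shCPT-2. These are 28.6% and 0% with ETX, 42.9% and 57.1% in shCPT-1, and 28.6% and 57.1% in shCPT-2. All genes gave 21.9% and 19.4%, 23.1% and 18.0%, and 25.6% and 20.5%. With 7 genes these counts are not read further.

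**Figure D3:**
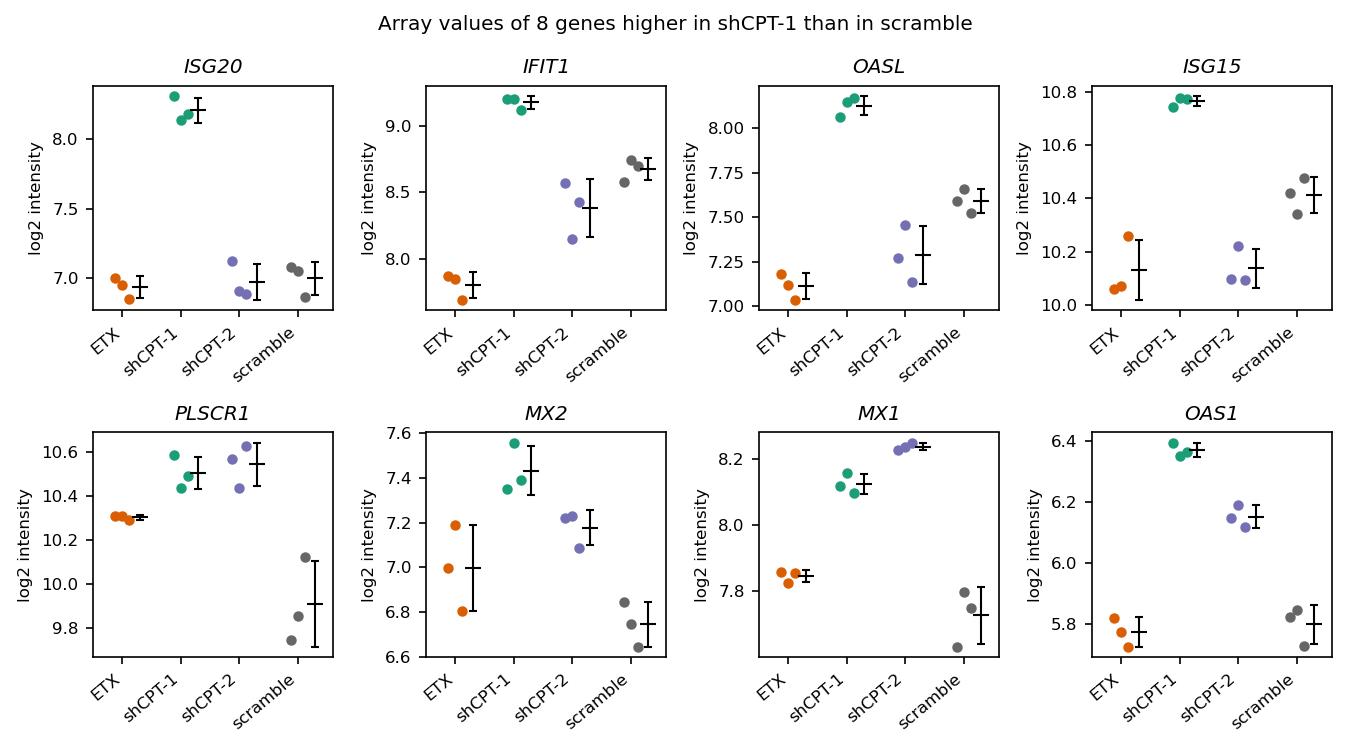
Log2 intensity (vertical axes) of ISG20, IFIT1, OASL, ISG15, PLSCR1, MX2, MX1 and OAS1 in each array (points) of ETX, shCPT-1, shCPT-2 and scramble, with the mean and SD of 3 arrays beside them. The shCPT-1 points lie above scramble in all 8 panels, the shCPT-2 points lie above it for PLSCR1, MX2, MX1 and OAS1, and the ETX points lie below it for IFIT1, OASL and ISG15.

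ISG15 is a ubiquitin-like protein that is joined to other proteins by the E2 enzyme UBE2L6 and the ligase HERC5 and is removed by USP18. ISG15 read 10.06, 10.07 and 10.26 with ETX, 10.74, 10.78 and 10.77 in shCPT-1, 10.10, 10.22 and 10.09 in shCPT-2, and 10.42, 10.34 and 10.48 in scramble. It was thus lower with ETX (-0.28 ± 0.06) and in shCPT-2 (-0.27 ± 0.06) and higher in shCPT-1 (0.35 ± 0.06). UBE2L6 read 9.36, 9.32 and 9.24 with ETX, 8.88, 8.67 and 8.74 in shCPT-1, 8.29, 8.17 and 8.19 in shCPT-2, and 8.90, 8.94 and 9.04 in scramble. Its ETX arrays lay above scramble (0.35 ± 0.06) and its shCPT-2 arrays well below it (-0.74 ± 0.06). The smaller fall in shCPT-1 (-0.19 ± 0.06) was not called without scramble replicate 2 or 3 or without shCPT-1 replicate 2 or 3. USP18 rose in shCPT-2 (0.32 ± 0.08). HERC5 fell by 0.16 with ETX and by 0.14 in shCPT-1. The HERC5 call with ETX ended without scramble replicate 1 or 2 or ETX replicate 3. The one in shCPT-1 ended without scramble replicate 1 or 2, without ETX replicate 1 or without any of the shCPT-1 replicates. HERC6 was not called.

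Of the remaining genes, IFI44L fell most. IFI44L, which has been described as a feedback regulator of the response, read 7.60, 7.57 and 7.49 with ETX, 6.35, 6.74 and 6.71 in shCPT-1, 5.93, 5.54 and 5.62 in shCPT-2, and 7.50, 7.35 and 7.03 in scramble. The ETX arrays overlapped scramble (0.26, not called), the shCPT-1 arrays were lower (-0.69 ± 0.13) and the shCPT-2 arrays lowest (-1.60 ± 0.13, 3.03-fold lower), with 0 of 3 shCPT-2 arrays above the array median. XAF1, a pro-apoptotic protein, read 7.94, 7.91 and 7.64 with ETX, 7.06, 7.50 and 7.20 in shCPT-1, 6.89, 6.87 and 6.71 in shCPT-2, and 7.70, 7.56 and 7.39 in scramble. Only its shCPT-2 arrays were called against scramble, at -0.73 ± 0.12. EPSTI1, an interferon-responsive gene known from the epithelial and stromal interaction in breast cancer, read 6.49, 6.41 and 6.33 with ETX, 6.02, 6.16 and 5.84 in shCPT-1, 5.79, 5.76 and 5.84 in shCPT-2, and 5.66, 5.77 and 5.85 in scramble. The ETX arrays alone exceeded the array median and let EPSTI1 into the test, so its differences against scramble of 0.65 with ETX, 0.25 in shCPT-1, where the arrays overlapped scramble, and 0.04 in shCPT-2 are a description.

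IFI6, a mitochondrial and ER protein that opposes apoptosis, rose in all 3 groups against scramble, by 0.24 with ETX, 0.50 in shCPT-1 and 0.39 in shCPT-2, although the first of these calls ended with the actin covariate. IFI35, a partner of NMI, rose by 0.35 with ETX and by 0.34 in shCPT-1. Both IFI35 calls ended with the actin covariate and without scramble replicate 2, and the second also without shCPT-1 replicate 1. IFI44 rose in shCPT-1 (0.39), but its other probe set gave -0.05 there and was not called. LGALS3BP, a secreted glycoprotein, fell by 0.17 with ETX and by 0.17 in shCPT-2. Both of its calls ended with the actin covariate, and the one with ETX also ended without scramble replicate 1 or ETX replicate 1 or 2.

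Between the knockdowns, every gene called but 1 was lower in shCPT-2. In shCPT-2 against shCPT-1, 29 of the 47 genes were lower and 1 was higher (61.7% and 2.13%), beside 17.8% lower and 17.7% higher among all genes. The gene that was higher was TRIM21 (0.22 ± 0.05), named after its value was seen. The median change was -0.26 over the 47 genes and 0.003 over all genes. By 0.5 or more, 15 genes were lower and 0 higher (3.43% and 2.06% of all genes), and the genes not called included MX1, PLSCR1 and USP18. Without OAS1 and EPSTI1, 28 of 45 genes were lower. The count of higher genes became 2 without scramble replicate 1, scramble replicate 3 or shCPT-2 replicate 1.

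Some genes that had fallen in both knockdowns were lower still in shCPT-2, among them BST2 (-1.22 ± 0.14), IFI44L (-0.91 ± 0.13), IFITM1 (-0.63 ± 0.05), TRIM22 (-0.56 ± 0.07) and GBP1 (-0.39 ± 0.06). Some genes that had risen in shCPT-1 were lower in shCPT-2 as well, among them ISG20 (-1.24 ± 0.08), OASL (-0.84 ± 0.07), IFIT1 (-0.80 ± 0.09), OAS2 (-0.68 ± 0.12) and ISG15 (-0.63 ± 0.06). GBP2 had the largest difference (-1.59 ± 0.09, limma adjusted p = 1.02e-07). By role, 6 of 8 RNA sensing genes, 6 of 8 transcription and chromatin genes and 5 of 7 replication restriction genes were lower. So were 4 of 7 genes of the IFI and others role, 2 of 4 IFIT genes and 2 of 5 membrane restriction genes. In the ISG15 system 2 of 5 were lower, and 2 of 3 antigen and guanylate-binding genes. Among all genes the share was 17.8%. With so few genes per role these counts are not read further. The lower RNA sensing genes include OAS1, which entered the test only through its shCPT-1 arrays, so its call follows from the filter in part. Calls that ended when 1 array was left out were those of MX2 (-0.25, any of 7 arrays), IRF9 (-0.12, any of 7), DTX3L (-0.29, shCPT-1 replicate 2) and XAF1 (-0.43, shCPT-1 replicate 2 or shCPT-2 replicate 3).

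**Figure D4:**
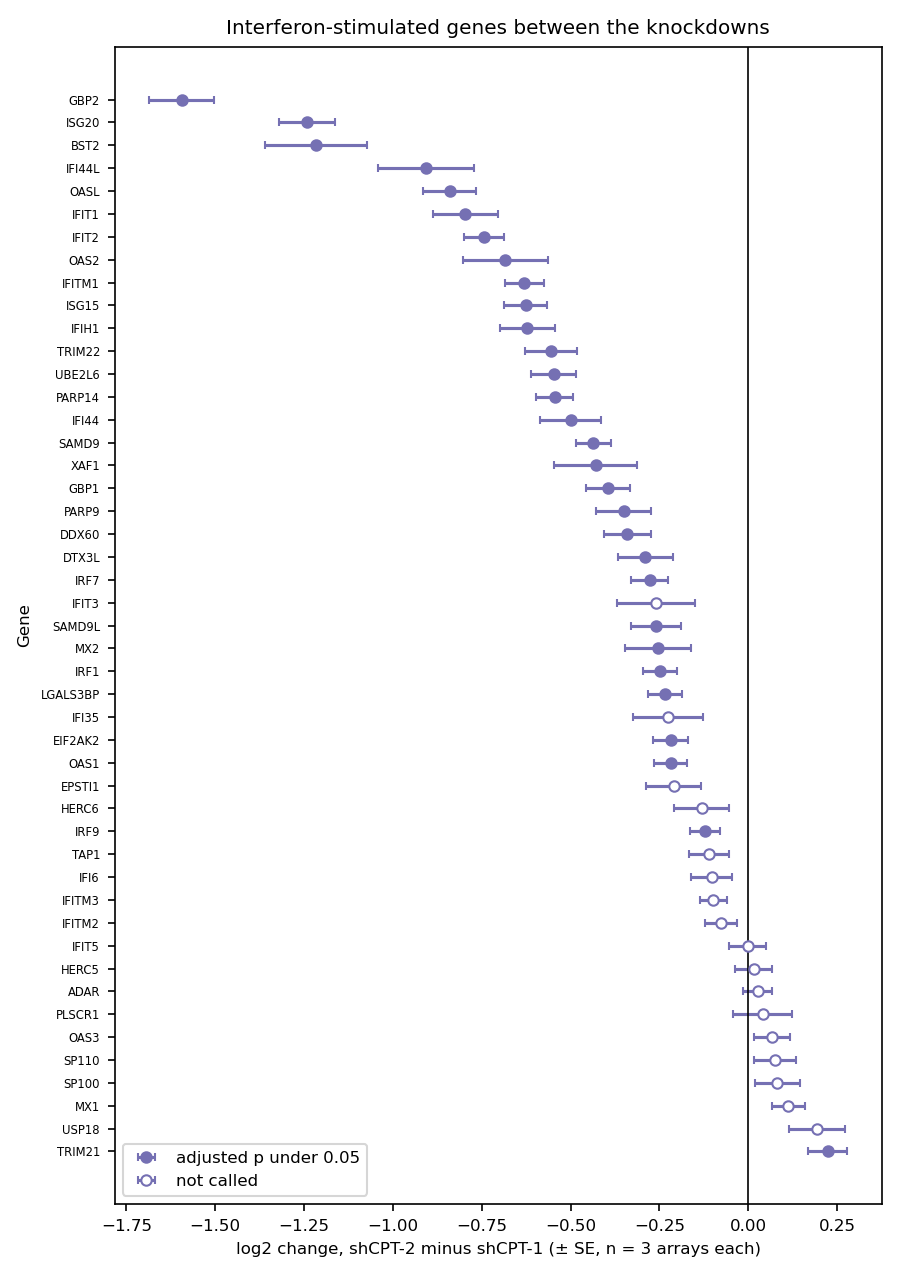
Log2 change of each of the 47 tested genes (rows, in order of the change) in shCPT-2 minus shCPT-1, with bars of ± 1 standard error and filled points at an adjusted p under 0.05. All filled points but that of TRIM21 lie left of 0, from IRF9 at -0.12 to GBP2 at -1.59.

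The knockdowns were also compared with ETX, which, if it is etomoxir, inhibits the CPT1 protein. The CPT1A transcript was higher with ETX than in scramble (1.11 ± 0.08), whereas it was lower in shCPT-1 (-1.59 ± 0.08). In shCPT-1 against ETX, 14 genes were higher and 16 lower, beside 22.9% and 19.8% of all genes. In shCPT-2 against ETX, 7 were higher and 21 lower, beside 24.9% and 20.9% of all genes. Without OAS1 and EPSTI1, these counts were 13 and 15 in shCPT-1 and 6 and 20 in shCPT-2. The widest differences in shCPT-1 against ETX were those of TRIM22 (-1.83 ± 0.07), IFIT1 (1.38 ± 0.09), ISG20 (1.28 ± 0.08), IRF1 (-1.07 ± 0.05) and OASL (1.01 ± 0.07). In shCPT-2 against ETX they were those of TRIM22 (-2.39 ± 0.07), BST2 (-2.09 ± 0.14), IFI44L (-1.86 ± 0.13), GBP2 (-1.71 ± 0.09) and IRF1 (-1.31 ± 0.05). Arrays of ETX and of the hairpin against CPT1 thus differed by test for IFIT1, OASL, ISG15, IRF1 and TRIM22. Calls in these comparisons that ended without 1 array were those of IFIT5, DTX3L and PARP14 in shCPT-1 and of IFIT5, OAS2, PLSCR1, USP18 and IFI6 in shCPT-2.

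Several of these genes lie side by side on a chromosome, and neighbours did not always move alike. On chromosome 1, IFI44L and IFI44 are adjacent coding genes, and in shCPT-1 IFI44L was -0.69 and IFI44 0.39, an opposite sign that rests on 1 probe set, since the other IFI44 probe set gave -0.05. On chromosome 11, IFITM1 lies between IFITM2 and IFITM3, and in shCPT-2 their changes were -1.24, 0.01 and -0.06. On chromosome 10, IFIT1 and IFIT5 were -0.87 and 0.25 with ETX. IFIT1 and IFIT5 thus had opposite signs, whereas the IFITM probe sets can bind several family members, so their division of signal is uncertain. On chromosome 12, OAS3 lies between OAS1 and OAS2, and in shCPT-1 the changes were -0.04, 0.57 and 0.45. Since OAS1 entered the test only through its shCPT-1 arrays, its value is a description. By contrast GBP1 and GBP2, SAMD9 and SAMD9L, MX2 and MX1, and PARP9 and DTX3L had changes of 1 sign within each pair in both knockdowns. Of these changes, those of GBP2 in shCPT-1 and of PARP9 and DTX3L in shCPT-2 were not called. The differences between neighbours were not tested, and probe sets differ in response, so unequal sizes of 1 sign are not read further.

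**Figure D5:**
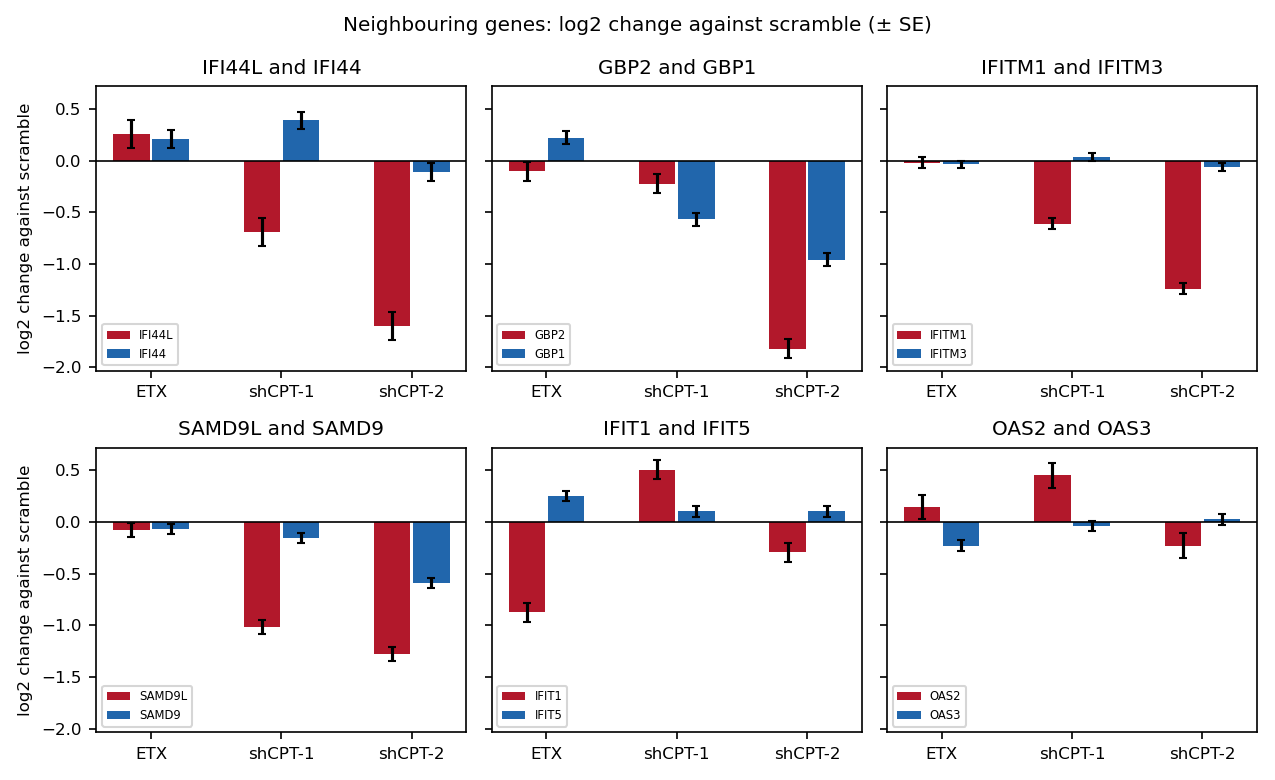
Log2 change against scramble (vertical axes, bars ± 1 standard error) of 6 pairs of neighbouring genes in ETX, shCPT-1 and shCPT-2. In shCPT-2, IFITM1 stands at -1.24 beside IFITM3 at -0.06, while both genes of the GBP and SAMD9 pairs lie below 0.

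The share of genes with the ISRE core was set beside the calls for the 38 tested genes with a promoter window. In shCPT-2 against shCPT-1, the core was present in 16 of 22 lower genes and in 10 of 15 genes not called. In shCPT-1 against scramble it was present in 11 of 13 higher genes, 8 of 13 lower genes and 8 of 12 not called. In shCPT-2 against scramble it was present in 3 of 4 higher genes, 13 of 19 lower genes and 11 of 15 not called. With ETX it was present in 9 of 12 higher genes, 5 of 5 lower genes and 13 of 21 not called, and the GAS core in 7, 0 and 6 of the same. Both directions thus held genes with the core, as the printed stretches of ISG15 and BST2 show. These counts are descriptions, with no test. They include EPSTI1, which holds both cores, and OAS1, which holds the GAS core alone. The calls of both genes follow from the filter in part.

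Genes of the machinery upstream are given beside the shares called among all genes, which were 21.9% higher and 19.4% lower with ETX, 23.1% and 18.0% in shCPT-1, and 25.6% and 20.5% in shCPT-2. Of 9 tested receptor and JAK-STAT genes, 2 rose and 1 fell with ETX, 2 rose and 1 fell in shCPT-1, and 1 rose and 3 fell in shCPT-2. IL10RB, a chain of the receptor for type III interferons and for IL-10, rose by 0.50 with ETX, 0.88 in shCPT-1 and 0.65 in shCPT-2. IFNAR1 fell by 0.27 in shCPT-1 and by 0.20 in shCPT-2, and the interferon gamma receptor chain IFNGR1 by 0.28 in shCPT-2. Its partner IFNGR2 was 0.19 in shCPT-1 and -0.19 in shCPT-2. With ETX, TYK2 fell by 0.37 and JAK1 rose by 0.28. The median change of this list lay at -0.01 with ETX, -0.02 in shCPT-1 and -0.05 in shCPT-2, close to that of all genes, and with 9 genes the counts are not read further.

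Of 13 tested genes that sense nucleic acids or relay that signal, 2 rose and 4 fell with ETX, 0 rose and 4 fell in shCPT-1, and 2 rose and 4 fell in shCPT-2. TLR3, the endosomal receptor of double-stranded RNA, was 0.67 ± 0.08 with ETX, -0.70 ± 0.08 in shCPT-1 and -1.04 ± 0.08 in shCPT-2, and so had the signs of IRF1 and TRIM22. RIGI, a sensor of RNA ends, fell by 0.25, 0.25 and 0.38 in the same order, and the kinase IKBKE by 0.26, 0.37 and 0.34. IRF3, the factor that first induces interferon genes, fell by 0.30 with ETX, SAMHD1, which depletes nucleotides, by 0.38 in shCPT-1, and the adaptor TRAF3 rose by 0.29 in shCPT-2.

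Of 7 tested negative regulators, 1 rose and 2 fell with ETX, 2 rose and 1 fell in shCPT-1, and 1 rose and 3 fell in shCPT-2. SOCS1, an inhibitor of JAK kinases and itself an interferon target, was -0.84 ± 0.07 with ETX, -0.23 ± 0.07 in shCPT-1 and -0.86 ± 0.07 in shCPT-2. PTPN2, a phosphatase of JAK1 and STAT proteins, rose by 0.17 in shCPT-1 and by 0.38 in shCPT-2. PIAS1 fell by 0.20 with ETX and by 0.19 in shCPT-2, SOCS3 fell by 0.15 in shCPT-2, and IRF2, an antagonist of IRF1, rose by 0.27 with ETX and by 0.25 in shCPT-1.

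A further list of other interferon-stimulated genes had 31 tested members. Of these, 14 rose and 5 fell with ETX, 8 rose and 7 fell in shCPT-1, and 6 rose and 14 fell in shCPT-2, with medians of 0.13, -0.03 and -0.12. These are 45.2% and 16.1% with ETX, 25.8% and 22.6% in shCPT-1, and 19.4% and 45.2% in shCPT-2, beside 21.9% and 19.4%, 23.1% and 18.0%, and 25.6% and 20.5% of all genes, so the shares in shCPT-1 lay near the background. CD274 (PD-L1), the ligand of PD-1, an inhibitory receptor of T cells, rose in all 3 groups, by 0.43 with ETX, 0.46 in shCPT-1 and 0.68 in shCPT-2. With ETX, WARS1, a tryptophanyl-tRNA synthetase, rose by 0.75, APOL6 rose by 0.65, and PML, the scaffold of nuclear bodies, fell by 0.42. GBP3 fell by 0.55 in shCPT-1. PARP10 fell by 0.45 in shCPT-1 and by 0.44 in shCPT-2, and TENT5A by 0.39 and 0.75. PSMB8, a subunit of the immunoproteasome, fell by 0.35 in shCPT-2.

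Markers of other cells that make or answer interferon were read on the same arrays. Of 9 leukocyte markers with a probe set, 2 passed the filter, with CD3E above the array median on 12 arrays and CSF1R on 6. ITGAM exceeded it on 2 arrays, and PTPRC, CD14 and CD3D on 0. The summed leukocyte signal was 8.73 to 8.88 with ETX, 8.91 to 8.97 in shCPT-1 and 8.75 to 8.80 in shCPT-2, against 8.84 to 8.94 in scramble (log2 of summed intensity). Of 6 endothelial markers, 3 passed the filter, with PECAM1 and TEK above the median on 12 arrays and KDR on 8. CLDN5 was above it on 2 arrays, and CDH5 and VWF on 0. The endothelial sum was 8.98 to 9.03 with ETX, 8.65 to 8.81 in shCPT-1 and 8.67 to 8.73 in shCPT-2, against 8.93 to 8.99 in scramble. It was thus lower in both knockdowns, as were KDR (6.633 in scramble, 5.995 in shCPT-1 and 6.185 in shCPT-2) and PECAM1 (7.343, 7.031 and 6.869). CDH5 read 4.261, 4.333 and 4.195 and VWF 5.876, 5.886 and 5.827 in the same order. The part of the endothelial sum in the results was not tested. Of 6 fibroblast markers, 3 passed, with sums of 8.88 to 8.92, 9.01 to 9.07 and 8.92 to 8.96 in ETX, shCPT-1 and shCPT-2, against 9.05 to 9.10 in scramble. Luminal epithelial markers, 6 of 8 of which passed, summed to 11.79 to 11.88 with ETX, 12.22 to 12.24 in shCPT-1 and 12.10 to 12.14 in shCPT-2, against 11.85 to 11.90 in scramble. The sum was higher in both knockdowns through KRT19 (0.73 in shCPT-1 and 0.43 in shCPT-2), while of the 6 tested markers 1 was higher and 3 were lower in shCPT-1, with a median change of -0.14, and 1 was higher and 1 lower in shCPT-2. Its part in the results was not tested.

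The mean actin difference was lower in each group than in scramble, with overlapping ranges of 1.68 to 1.78 with ETX, 1.47 to 1.91 in shCPT-1 and 1.45 to 1.91 in shCPT-2, against 1.76 to 2.25 in scramble. With it as a covariate, 13 genes rose and 7 fell with ETX, 15 rose and 13 fell in shCPT-1, and 6 rose and 20 fell in shCPT-2. Between the knockdowns, 1 gene was then higher and 33 were lower. It ended no call against scramble of at least 0.5, and the smaller calls that it ended were 5 with ETX, 3 in shCPT-1 and 5 in shCPT-2.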

How the data were processed

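The 12 arrays hold 1 value per probe set. The authors deposited them as linear intensity values, made with RMA, which corrects background, normalizes arrays and summarises probes, per the submitters' processing notes. The sources used here name no version, settings or build. Since RMA makes arrays alike, a shift of all genes together cannot be read. Values ran from 6.68 to 28791 and were taken to log2. Gene names came from the platform's annotation: 41091 of 54675 probe sets had 1 symbol, 1801 had several and 11721 had none, and 62 were controls. Probe sets were kept if they exceeded the array median on at least 3 arrays, and the brightest kept probe set stood for its gene.

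All 12887 genes were fitted over the 12 arrays with limma 3.58.1 (lmFit and eBayes, R 4.3.3, data.table version 1.17.8), with 8 residual and 4.117 prior degrees of freedom. Tests were two-sided, and a call was an adjusted p (Benjamini-Hochberg, over all genes of a comparison) under 0.05. An exact test of 3 against 3 arrays cannot go below p = 0.1 and was not used. No arrays were identical. The replicate numbers did not pair arrays: correlations of same-numbered deviations ran from -0.457 to 0.327. Those of differently numbered arrays of different groups ran from -0.453 to 0.612, the highest being scramble replicate 3 with shCPT-1 replicate 1. Some arrays of different groups thus shared deviations, which the main fit does not model. The number of arrays limits the precision.

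Each of the 51 genes was accounted for. Values in every array were given for the 22 genes that in a comparison against scramble were called, changed by at least 0.5 and did not overlap. From each other list, up to 4 genes with the smallest p per comparison were named, if called. The genes and lists were chosen with earlier results of these data known. Promoters and symbols came from RefSeq (GRCh38.p14), and 42 genes matched the promoter table. Steps were tested on simulated data. Alternatives covered the filter, the choice of probe sets, normalization, array weights, the samples fitted, the actin difference and leaving out arrays. Python (version 3.11.15, with numpy version 2.4.6, pandas version 2.3.3 and matplotlib version 3.10.9) searched the promoters and drew the figures.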

Additional observations from a re-analysis of the deposited data

How the results depend on the processing

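Of 171 calls of these genes in 6 comparisons, 135 kept their call and direction under all alternatives run, and so did 76 of the 77 calls of at least 0.5. Without the probe set kinds open to cross-hybridisation, 33 genes could be tested, and the counts dropped to 9 higher with ETX, 11 higher in shCPT-1 and 27 called over the 4 groups. There IFI44, whose remaining probe set differs, turned to -0.049 in shCPT-1 against scramble and to 0.070 in shCPT-2 against ETX. With array weights, 5 genes were higher in shCPT-2 than in shCPT-1, and the cause was not tested. Leaving out 1 array at a time gave 12 to 16 higher and 6 to 8 lower genes with ETX, 14 to 18 and 10 to 15 in shCPT-1, and 5 to 7 and 22 to 25 in shCPT-2 against scramble. It gave 12 to 16 and 13 to 16 in shCPT-1 against ETX, 5 to 7 and 18 to 23 in shCPT-2 against ETX, 1 to 2 and 24 to 31 in shCPT-2 against shCPT-1, and 38 to 42 over the 4 groups. Where this left 2 arrays in a group, they were assumed to vary like the other groups. A replicate block gave 15 higher and 8 lower with ETX, 17 and 14 in shCPT-1, 6 and 23 in shCPT-2, and 1 and 28 between the knockdowns. The numbers are shared names only, since 5 of 12 arrays correlated best with their own number. Fits of only the groups compared give no value over the 4 groups. Genes near the array median (OAS1, EPSTI1, and TRIM22, IFI44L, IFIH1 and BST2 in shCPT-2) have less certain folds.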
